A study of Oryzias latipes with 8 samples.

Results

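The genes described here carry the names of nucleolar ribosome biogenesis factors in the medaka fish, Oryzias latipes. They were taken by name from the gene names in the authors' deposited sheets of changed genes, by patterns such as utp, nop, nol, polr1, wdr or ddx followed by a number, with a few single genes added and wdr12, nop56 and nop58 left out. The rule found 40 genes among the 16957 with counts in all 8 libraries, and all 40 passed the filter on low counts. Of 120 symbols that these patterns take in a RefSeq gene set of another assembly, 34 were among the 40 genes. The numbers were 2 of 4 for polr1, 3 of 8 for utp and 0 of 6 for rrp. Genes of the other symbols carry no such name in the sheets, so their levels are not described here. Sorted by known role, 27 of the 40 act in ribosome assembly and are called assembly factors below: 2 subunits of RNA polymerase I, 13 factors of the small (40S) subunit, 8 of the large (60S) subunit, 1 protein of the H/ACA particle and 3 factors of rRNA modification. The other 13 are WD-repeat, DEAD-box or NOL genes whose main role lies elsewhere or is not known. The name of the group thus fits the main role of 27 of its 40 genes. Sorting was by main role, so some of the 13 may act in ribosome assembly as well.

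Ribosomes are put together in the nucleolus, where RNA polymerase I transcribes the precursor of the ribosomal RNAs. A large particle that contains the U3 small nucleolar RNA then folds and cleaves the precursor on the side of the small subunit, while other factors, many of them RNA helicases and GTPases, build the large subunit. Guide RNAs packed with box C/D or H/ACA proteins direct methylation and pseudouridylation of the rRNA. Dividing and growing cells make many ribosomes, and in the fish optic tectum, the dorsal midbrain that receives retinal input, neuroepithelial cells at the margin keep dividing after the embryo.

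The libraries were made from cells dissociated from the optic tectum of medaka at 1 month of age, from a protocol that mentions 30 dissected tecta, sorted by fluorescence, with 4 ng of RNA per library and single reads of 50 bases. The wdr12:GFP line carries GFP under the promoter of wdr12, itself a ribosome biogenesis gene, and marks the neuroepithelial cells. It gave wdr12 GFP-positive cells (n = 3) and wdr12 GFP-negative cells (n = 2), the latter a mixture of amplifying progenitors, neurons and glia. The ebf3:GFP line gave GFP-positive cells (n = 3), called ebf3 cells below, which are differentiated neurons and progenitors that no longer divide. No sex or strain is given in the sources used here, nor whether replicates are separate pools of fish, so p-values measure the spread between these libraries, which may be technical. Total counts ran from 3497101 to 11580629 per library, with the lowest and the third lowest in the 2 GFP-negative libraries. In bulk samples, fewer cells of a type and less RNA per cell cannot be told apart.

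The endogenous wdr12 gene followed the sort. Its level in CPM, the normalised read count scaled to library size by the TMM method, was 99.3, 60.6 and 50.6 in wdr12 GFP-positive replicates 1, 2 and 3, against 25.7 and 21.5 in the GFP-negative and 24.8, 26.6 and 18.5 in the ebf3 libraries. All 3 wdr12 GFP-positive libraries thus stood above the 5 others. All 7 cycling-cell markers found, such as mki67 and pcna, were higher in wdr12 GFP-positive cells than in each control. The neuronal markers were lower in 8 of 8 genes against GFP-negative and in 7 of 8 against ebf3 cells. Markers could be found only among genes the authors listed as changed in these libraries, so these counts are not independent evidence. Of the tested genes with a name in those lists, 29.9% and 37.9% were called higher against GFP-negative and ebf3 cells. The shares called lower were 30.7% and 31.8%. Erythrocyte markers took 3.54% and 13.7% of the counts in GFP-negative replicates 1 and 2, and 0.036% to 0.127% in the other libraries.

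The assembly factors were high in wdr12 GFP-positive cells. Against wdr12 GFP-negative cells, 25 of 27 were higher at an adjusted p under 0.05, 0 were lower (also 0 at an unadjusted p under 0.05, and 0 with DESeq2) and 2 were not called (edgeR quasi-likelihood test, Benjamini-Hochberg adjustment over 15640 genes); 9.92% of all genes tested were called higher. Their median log2 fold change was 1.42, with a range from 0.98 to 2.33, beside 0.05 over all genes. Against ebf3 cells, 14 of 27 were higher and 0 lower (again 0 unadjusted and with DESeq2), beside 12.7% of all genes called higher, with a median of 0.89 and a range from 0.19 to 1.59, beside 0.01 over all genes. Over all 40 genes, 3 were lower against GFP-negative and 4 against ebf3 cells, beside 9.84% and 10.8% of all genes. All of these were among the 13 genes of other roles, so the 0 rests on the sorting by role. These counts do not stand as independent evidence. The names from which the genes were drawn are given only for genes the authors listed as changed, with an absolute log2 fold change over 1 and an adjusted p of up to 0.05 in their own test on the same libraries. In those deposited sheets of the authors 25 of the 27 were listed as higher against GFP-negative cells and 11 against ebf3 cells. Over the 4658 tested genes that carry a name, 29.9% were called higher against GFP-negative and 37.9% against ebf3 cells, and the median log2 fold changes were 0.31 and 0.28.

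**Figure D1:**
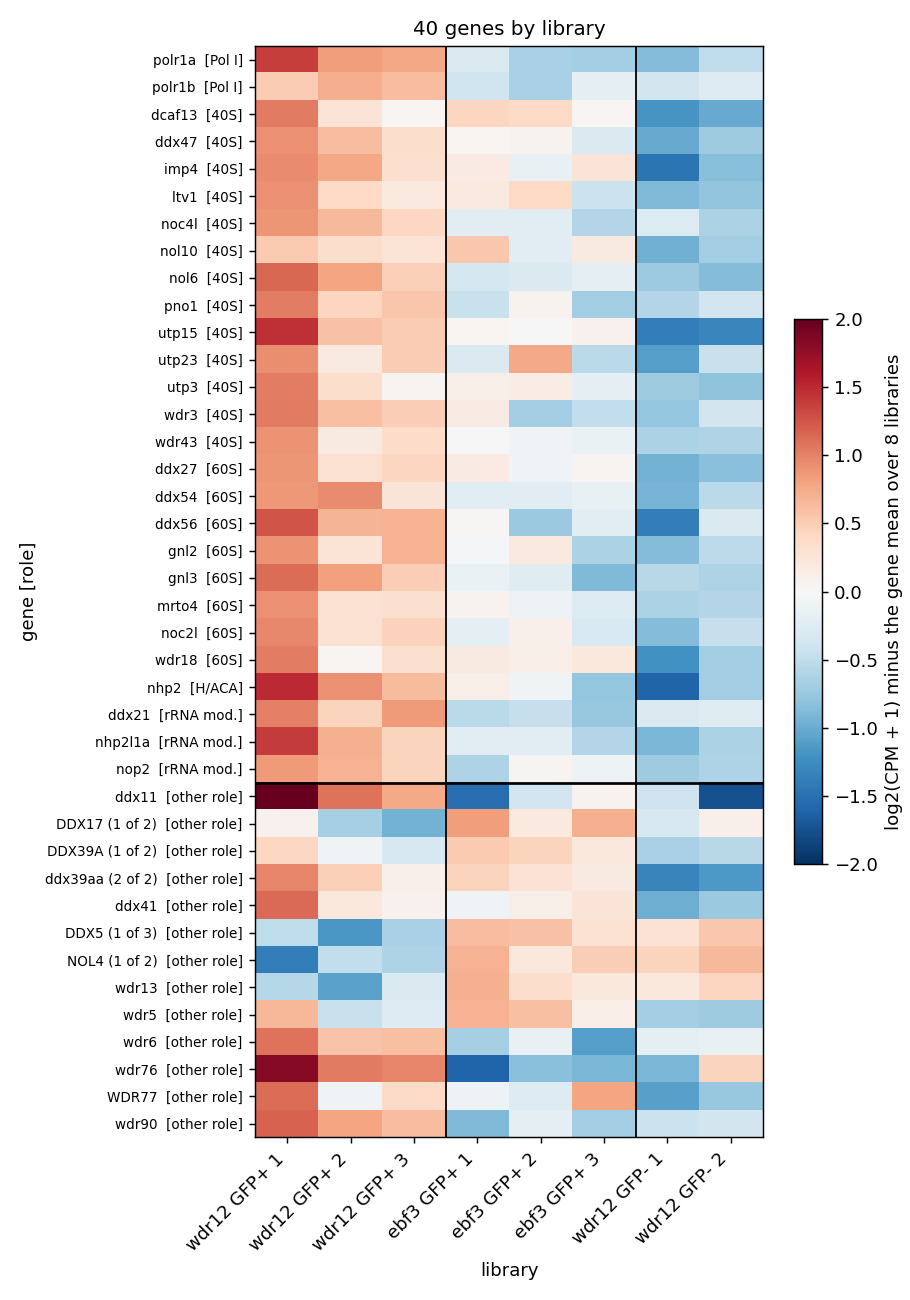
The heat map shows, for each of the 40 genes (rows, role in brackets) and each of the 8 libraries (columns), log2(CPM + 1) minus the mean of the gene over the libraries, from blue (low) to red (high). The 27 assembly factors above the line are red or near white in the 3 wdr12 GFP-positive columns and mostly blue in the 2 GFP-negative ones, and the 13 genes of other roles below it are mixed.

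Near the limit of the authors' list stood ddx21, with a log2 fold change of 0.997 and an adjusted p of 0.04603 against GFP-negative cells in the authors' deposited table, just outside, and polr1b with 0.9161 and 0.1373. Just inside stood noc4l with 1.072 and wdr43 with 1.081 in the authors' deposited table. Both ddx21 and polr1b entered through the comparison with ebf3 cells.

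RNA polymerase I makes the rRNA precursor, and both of its subunits among the 40 genes stood higher in each wdr12 GFP-positive library than in any control. polr1a (ENSORLG00000008753), the largest subunit, was at 103, 69.6 and 66.9 CPM in wdr12 GFP-positive replicates 1 to 3, at 20.7 and 27 CPM in GFP-negative and at 31.6, 24.2 and 23.8 CPM in ebf3 cells. The wdr12 GFP-positive libraries lay apart from the rest, and the controls overlapped. Its log2 fold change was 1.74 ± 0.349 (SE) against GFP-negative (adjusted p = 0.00249) and 1.59 ± 0.299 against ebf3 cells (adjusted p = 0.00106), which is 3.34-fold and 3.01-fold; pairs of log2 fold changes below are in this order. polr1b (ENSORLG00000000890), which forms the catalytic core with polr1a, was at 25.6, 30 and 27.7 CPM in the wdr12 GFP-positive sort, 13.5 and 14.6 CPM in GFP-negative and 13.2, 11 and 15.6 CPM in ebf3 cells. Again no control library reached the wdr12 GFP-positive ones. The difference of polr1b was called against ebf3 cells, at a log2 fold change of 1.06 ± 0.329 (adjusted p = 0.0279), but not against GFP-negative cells, at 0.98 ± 0.378 (adjusted p = 0.0831). The call against ebf3 cells was lost in 7 of 16 alternative settings, with adjusted p up to 0.121. Between the controls neither subunit was called, with log2 fold changes of -0.15 ± 0.334 for polr1a and 0.08 for polr1b (GFP-negative over ebf3 cells, adjusted p = 0.894 and 0.954).

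Factors of the small subunit were called higher against GFP-negative cells in 12 of 13 genes (median log2 fold change 1.38). The shares called higher were 9.92% of all genes and 29.9% of the named genes. Against ebf3 cells 5 of 13 were higher (median 0.62), beside 12.7% and 37.9%. Each of these factors had been listed by the authors as higher than in GFP-negative cells. The largest change of the 13 against GFP-negative cells was that of utp15 (ENSORLG00000002095), a WD-repeat protein that joins the processome early and is tied to rDNA transcription. It was at 130, 70.7 and 66.4 CPM in the wdr12 GFP-positive sort, 17.2 and 18.2 CPM in GFP-negative and 47.8, 46.8 and 49.6 CPM in ebf3 cells. The 3 groups did not overlap, with ebf3 cells in the middle. utp15 was 5.03-fold higher than in GFP-negative cells (log2 2.33 ± 0.372, adjusted p = 0.000502) and 1.85-fold higher than in ebf3 cells (log2 0.89 ± 0.301, adjusted p = 0.044). The last of these calls was lost in 9 of 16 alternative settings.

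dcaf13 (ENSORLG00000002363), whose yeast counterpart Sof1 belongs to the U3 particle, was at 223, 130 and 111 CPM in the wdr12 GFP-positive sort, 47.2 and 53.1 CPM in GFP-negative and 147, 143 and 111 CPM in ebf3 cells. The GFP-negative libraries were low and the other 2 groups overlapped. Its log2 fold change was 1.62 ± 0.353 against GFP-negative (adjusted p = 0.00425) and 0.21 ± 0.296 against ebf3 cells (adjusted p = 0.705), the latter being -0.05 under total count scaling. imp4 (ENSORLG00000016710), which pairs U3 with the precursor, was at 168, 148 and 109 CPM in the wdr12 GFP-positive sort, 30.7 and 47.6 CPM in GFP-negative and 96.7, 77.8 and 103 CPM in ebf3 cells. For imp4 the lowest wdr12 GFP-positive library was still above the highest ebf3 library, by a small gap. The log2 fold change of imp4 was 1.85 ± 0.337 against GFP-negative (adjusted p = 0.00127) and 0.62 ± 0.28 against ebf3 cells (adjusted p = 0.137). nol10, the counterpart of yeast Enp2, had a log2 fold change of 1.27 against GFP-negative (adjusted p = 0.0305) and 0.19 against ebf3 cells (adjusted p = 0.756). The ebf3 libraries held nol10 at 29.9, 17.5 and 23.1 CPM, overlapping the 29.7, 26.1 and 24.8 CPM of the wdr12 GFP-positive sort, and the GFP-negative libraries were lower, at 10 and 12.2 CPM.

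wdr43 (ENSORLG00000018236), the counterpart of yeast Utp5, was at 173, 105 and 120 CPM in the wdr12 GFP-positive sort, 59.2 and 60.6 CPM in GFP-negative and 92.5, 88.4 and 84.4 CPM in ebf3 cells. No groups overlapped. Its log2 fold change was 1.15 ± 0.309 against GFP-negative (adjusted p = 0.0156) and 0.59 ± 0.266 against ebf3 cells (adjusted p = 0.137). pno1 (ENSORLG00000002371), which holds the immature end of the small-subunit rRNA until its last cleavage, was at 201, 133 and 146 CPM in the wdr12 GFP-positive sort, 65.5 and 76.4 CPM in GFP-negative and 72.3, 104 and 60.6 CPM in ebf3 cells. In contrast to wdr43, the controls overlapped for pno1. Its log2 fold changes were 1.17 ± 0.332 (adjusted p = 0.0203) and 1.02 ± 0.288 (adjusted p = 0.0168).

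Among the other small-subunit factors, noc4l, nol6 and wdr3 were called higher than in ebf3 cells as well, at log2 fold changes of 1.02, 1.14 and 1.05 (adjusted p = 0.018, 0.0123 and 0.0382). noc4l, whose yeast counterpart Noc4 is needed for the small subunit to leave the nucleus, was at 66.3, 56.3 and 48 CPM in the wdr12 GFP-positive sort, 29.2 and 22.5 CPM in GFP-negative and 30.2, 30.8 and 23.3 CPM in ebf3 cells. wdr3, the counterpart of yeast Utp12, was at 46.5, 34 and 31.4 CPM in the wdr12 GFP-positive sort, 12.6 and 17 CPM in GFP-negative and 24.9, 13.5 and 15.5 CPM in ebf3 cells. For both genes the controls overlapped and lay below all 3 wdr12 GFP-positive libraries. nol6, the counterpart of yeast Utp22, was at 59.5, 46.3 and 36.7 CPM in the wdr12 GFP-positive sort, 15.4 and 13.9 CPM in GFP-negative and 20.3, 21.4 and 23 CPM in ebf3 cells, with no overlap of groups. The helicase ddx47, ltv1, known for the export of the small subunit, and utp3, the counterpart of yeast Sas10, were called against GFP-negative cells at log2 fold changes of 1.53, 1.42 and 1.32, and had values of 0.71, 0.45 and 0.52 against ebf3 cells (adjusted p = 0.0784, 0.363 and 0.251). utp23 was called in neither comparison. It was at 37.2, 21.6 and 27.3 CPM in the wdr12 GFP-positive sort, 8.27 and 13.7 CPM in GFP-negative and 15.3, 32.8 and 12.7 CPM in ebf3 cells, where replicate 2 stood above 2 of the wdr12 GFP-positive libraries. The log2 fold changes of utp23 were 1.38 ± 0.484 (adjusted p = 0.0584) and 0.5 ± 0.407 (adjusted p = 0.452).

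Factors of the large subunit were called higher against GFP-negative cells in 8 of 8 genes (median log2 fold change 1.44). The shares called higher were 9.92% of all genes and 29.9% of the named genes. Against ebf3 cells 3 of 8 were higher (median 0.74), beside 12.7% and 37.9%. Each of these factors had been listed by the authors as higher than in GFP-negative cells. gnl3 (ENSORLG00000016030), or nucleostemin, a nucleolar GTPase known from stem and tumour cells, was at 432, 350 and 277 CPM in the wdr12 GFP-positive sort, 134 and 128 CPM in GFP-negative and 181, 167 and 107 CPM in ebf3 cells. The wdr12 GFP-positive libraries were all above the controls, which overlapped. gnl3 was 2.69-fold higher than in GFP-negative cells (log2 1.43 ± 0.334, adjusted p = 0.00683) and 2.33-fold higher than in ebf3 cells (log2 1.22 ± 0.288, adjusted p = 0.00556). Its relative gnl2 (ENSORLG00000014645), a GTPase needed before the large subunit leaves the nucleus, was at 167, 107 and 144 CPM in the wdr12 GFP-positive sort, 48.5 and 61.5 CPM in GFP-negative and 86.1, 102 and 57.1 CPM in ebf3 cells. Here replicate 2 of the wdr12 GFP-positive cells came close to replicate 2 of the ebf3 cells. The log2 fold changes of gnl2 were 1.34 ± 0.342 (adjusted p = 0.0113) and 0.77 ± 0.293 (adjusted p = 0.0733).

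mrto4 (ENSORLG00000004400), which occupies the place of the stalk protein P0 on the immature subunit, was at 201, 132 and 133 CPM in the wdr12 GFP-positive sort, 68.8 and 70.8 CPM in GFP-negative and 112, 98.3 and 88.1 CPM in ebf3 cells. No groups overlapped, but only the difference from GFP-negative cells was called, at a log2 fold change of 1.16 ± 0.31 (adjusted p = 0.0151), with 0.65 ± 0.267 against ebf3 cells (adjusted p = 0.1). wdr18 (ENSORLG00000000101), of the complex that remodels the late nuclear subunit, was at 216, 109 and 133 CPM in the wdr12 GFP-positive sort, 45.3 and 65.8 CPM in GFP-negative and 120, 116 and 123 CPM in ebf3 cells. Replicate 2 of the wdr12 GFP-positive cells was below all 3 ebf3 libraries. The log2 fold changes of wdr18 were 1.46 ± 0.349 (adjusted p = 0.00767) and 0.36 ± 0.295 (adjusted p = 0.455). The helicases ddx54 and ddx56 were called higher than in both kinds of control cells, at log2 fold changes of 1.46 and 1.73 against GFP-negative and 0.94 and 1.25 against ebf3 cells. ddx54, the counterpart of yeast Dbp10, was at 123, 131 and 80.5 CPM in the wdr12 GFP-positive sort, 35 and 46 CPM in GFP-negative and 57.1, 57.2 and 60.8 CPM in ebf3 cells, and the groups did not overlap. ddx56, the counterpart of yeast Dbp9, was at 39.1, 25.8 and 26.2 CPM in the wdr12 GFP-positive sort, 5.44 and 12.7 CPM in GFP-negative and 16, 9.09 and 13.3 CPM in ebf3 cells, and the controls overlapped. ddx27 and noc2l, the counterparts of yeast Drs1 and Noc2, were called against GFP-negative cells at 1.49 and 1.26, and had 0.52 and 0.72 against ebf3 cells (adjusted p = 0.2 and 0.0774).

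**Figure D2:**
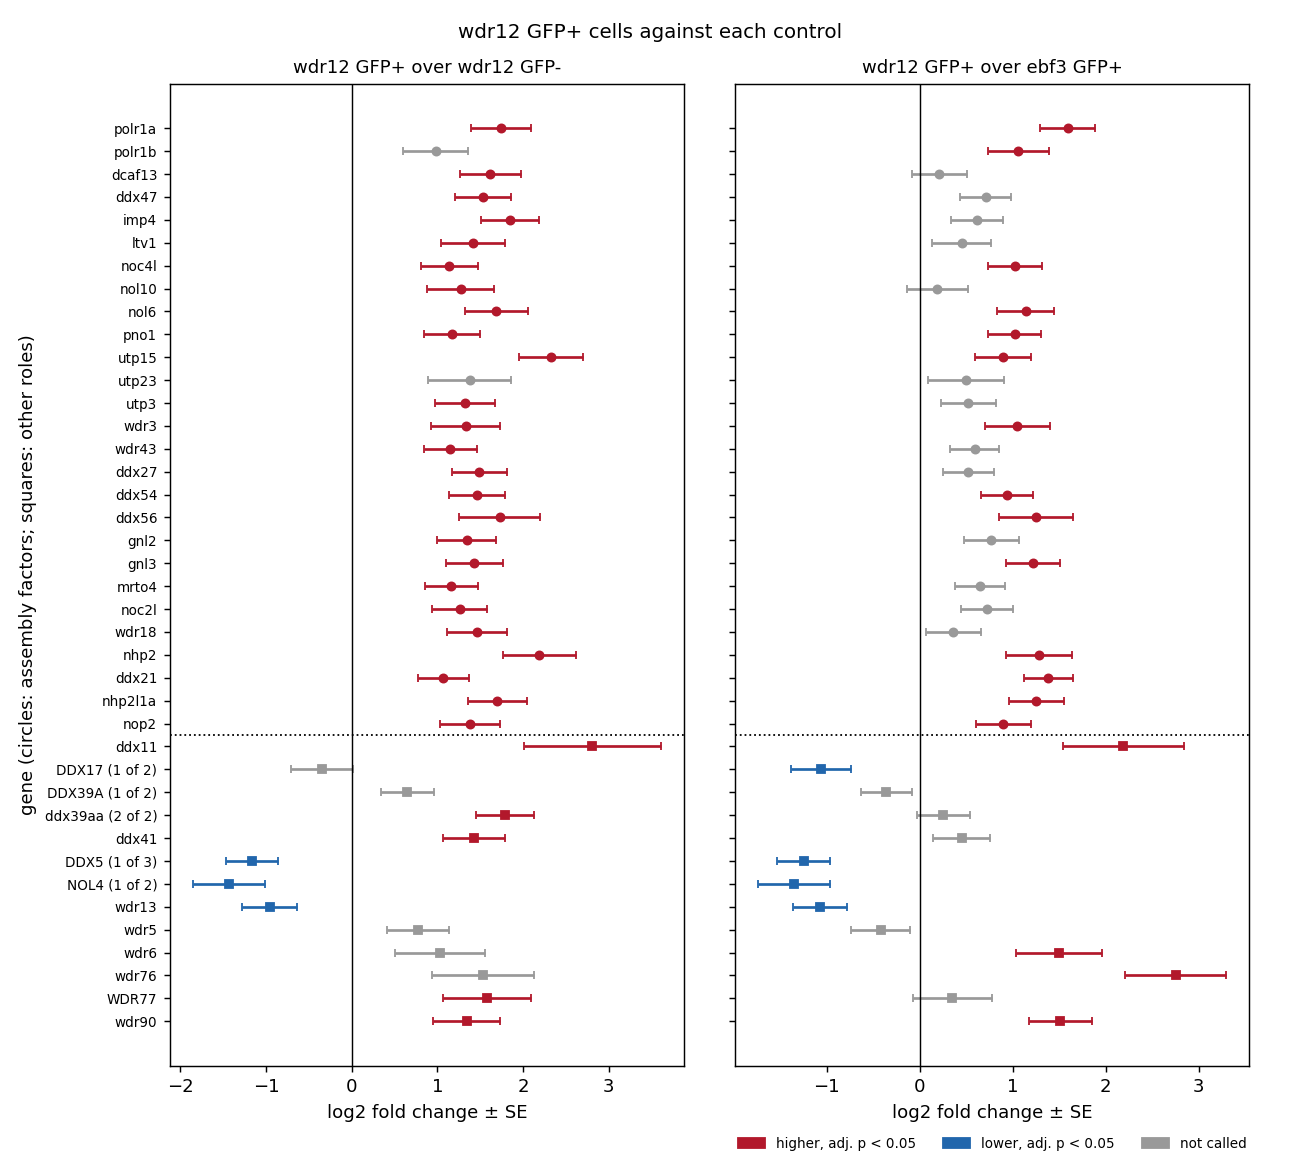
Each row is a gene, with its log2 fold change and SE in wdr12 GFP-positive over GFP-negative cells (left) and over ebf3 cells (right); red marks genes called higher, blue genes called lower and grey genes not called at an adjusted p of 0.05. The circles (assembly factors) all lie right of 0 in both panels, although dcaf13 on the right turns to -0.05 under total count scaling, with 25 of 27 red on the left and 14 of 27 red on the right, and the squares (other roles) lie on both sides.

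Of the proteins that modify rRNA, nhp2 (ENSORLG00000000722), a core protein of the H/ACA particle, was at 105, 69.8 and 57.5 CPM in the wdr12 GFP-positive sort, 11.5 and 22.3 CPM in GFP-negative and 40, 34.6 and 21.1 CPM in ebf3 cells. The wdr12 GFP-positive libraries were all above both controls. nhp2 was 4.56-fold higher than in GFP-negative cells (log2 2.19 ± 0.428, adjusted p = 0.00209) and 2.43-fold higher than in ebf3 cells (log2 1.28 ± 0.353, adjusted p = 0.0149). nhp2l1a (ENSORLG00000003534), a box C/D and U3 protein that is also part of the U4 spliceosomal particle and carries a second name, nhp2l1b, in the sheets, was at 299, 186 and 154 CPM in the wdr12 GFP-positive sort, 59.2 and 72.3 CPM in GFP-negative and 97.7, 96.2 and 75.1 CPM in ebf3 cells. Its groups did not overlap, and its log2 fold changes were 1.7 ± 0.348 (adjusted p = 0.00293) and 1.25 ± 0.296 (adjusted p = 0.00563). nop2 (ENSORLG00000012153), a methyltransferase of the large-subunit rRNA, was at 58, 52.3 and 43.7 CPM in the wdr12 GFP-positive sort, 19.1 and 20.3 CPM in GFP-negative and 20.3, 32.9 and 29.5 CPM in ebf3 cells. Its lowest wdr12 GFP-positive library was above every control library, with log2 fold changes of 1.38 ± 0.352 (adjusted p = 0.0114) and 0.9 ± 0.3 (adjusted p = 0.0411); the latter call was lost in 9 of 16 alternatives.

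The helicase ddx21 (ENSORLG00000010122), which acts on RNA polymerase I transcription and on small nucleolar RNAs, was at 307, 207 and 274 CPM in the wdr12 GFP-positive sort, 124 and 128 CPM in GFP-negative and 104, 110 and 89.2 CPM in ebf3 cells. Both GFP-negative libraries lay above the 3 ebf3 libraries, an order held by 21.9% of all genes and by no other assembly factor. That difference between the controls was not called, at a log2 fold change of 0.31 ± 0.289 (adjusted p = 0.658). Against wdr12 GFP-positive cells both controls differed, with log2 fold changes of 1.07 ± 0.3 (adjusted p = 0.0197) over GFP-negative and 1.38 ± 0.264 (adjusted p = 0.00121) over ebf3 cells.

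**Figure D3:**
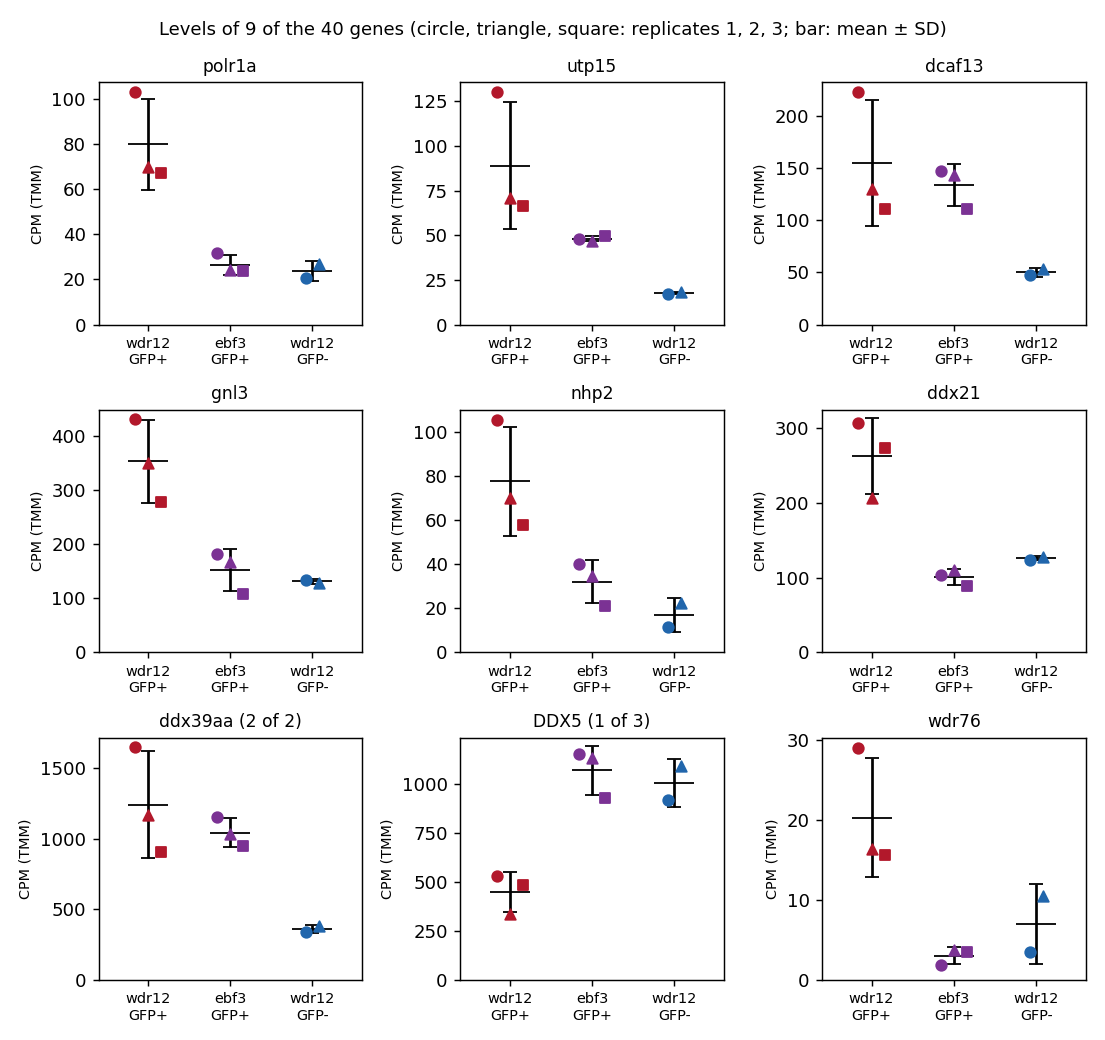
CPM of 9 of the 40 genes in each library, by group, with circles, triangles and squares for replicates 1, 2 and 3 and bars for the mean ± SD of a group; each panel has its own axis from 0. The ebf3 libraries lie with the GFP-negative ones for polr1a and gnl3, between the groups for utp15, and with wdr12 GFP-positive ones for dcaf13 and ddx39aa, while DDX5 is lowest in wdr12 GFP-positive cells.

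Between the controls, most assembly factors were not called different by the test. Of 27 factors, 3 were called lower in GFP-negative cells than in the ebf3 line and 0 higher, beside 1.96% and 3.16% of all genes and 6.18% and 9.27% of the named genes, with a median log2 fold change of -0.55 beside 0.01 over all genes. At an unadjusted p under 0.05 the edgeR counts were 10 lower and 0 higher. Over all 15640 genes tested they were 1490 and 1473, and over the 4658 named genes 975 and 1116. DESeq2 called 5 lower and 0 higher of the 27 factors, and its counts over all genes are not given here. All 3 factors called by edgeR at an adjusted p under 0.05 were small-subunit factors. utp15 had a log2 fold change of -1.44 ± 0.359 (adjusted p = 0.03), dcaf13 of -1.42 ± 0.35 (adjusted p = 0.0285) and imp4 of -1.24 ± 0.329 (adjusted p = 0.0408). Median log2 fold changes were -0.82 for the small-subunit and -0.53 for the large-subunit factors, and the difference between these classes was not tested. Both GFP-negative libraries were below all 3 ebf3 libraries for 15 of 27 factors, beside 19.5% of all genes, and the values overlapped for 11. In 25 of 27 factors the group means ran from wdr12 GFP-positive through ebf3 cells to GFP-negative cells, an order held by 19.6% of all genes tested; polr1b and ddx21 had the controls the other way round. The authors' sheets list 4 of the 27 as lower in GFP-negative cells. They list 25 of the 27 as higher in wdr12 GFP-positive cells than in the same 2 GFP-negative libraries. Such a selection favours low GFP-negative values, so the counts, order and median between the controls are not independent evidence. The erythrocyte counts given above sit in the same 2 libraries, and their part in these differences was not tested. Leaving out either GFP-negative library, or ebf3 replicate 1 or 2, left 0 of the 3 calls.

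**Figure D4:**
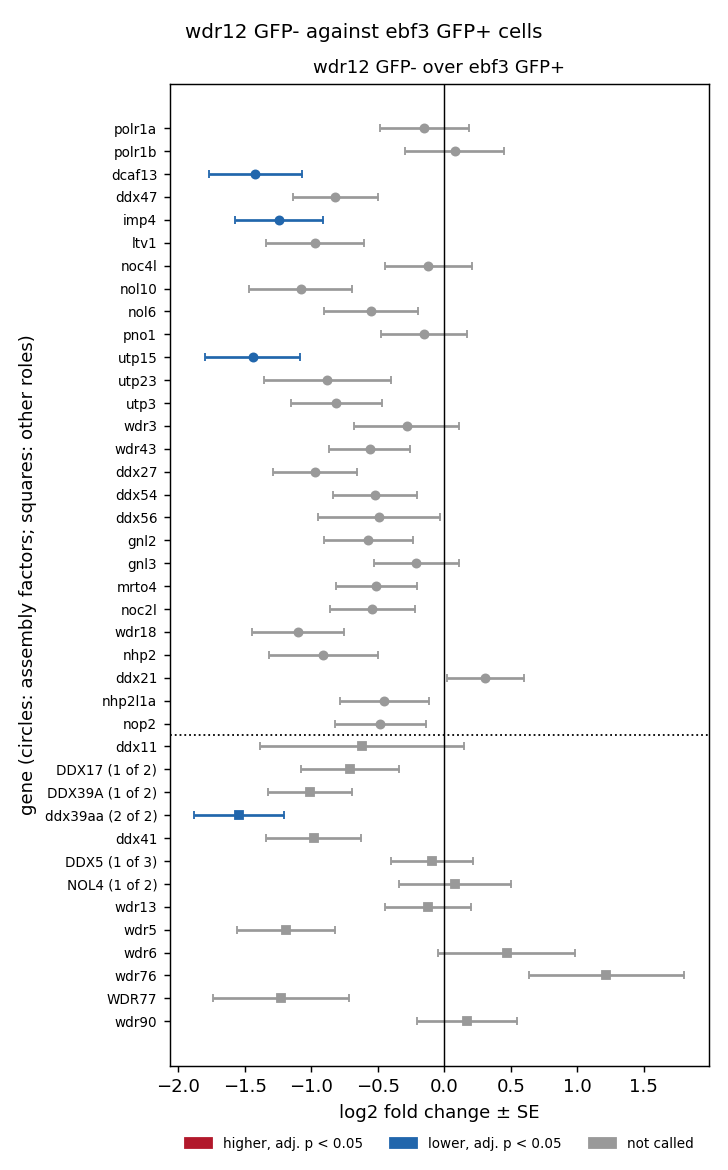
Log2 fold change with SE of each of the 40 genes in wdr12 GFP-negative over ebf3 cells, with blue for genes called lower at an adjusted p of 0.05 and grey for genes not called. The 4 blue points are dcaf13, imp4, utp15 and ddx39aa (2 of 2), and most grey points lie left of 0.

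The 13 genes with other roles held calls in both directions. Against GFP-negative cells 5 were higher, beside 9.92% of all genes and 29.9% of the named genes. A further 3 were lower (beside 9.84% of all genes and 30.7% of the named genes called lower) and 5 were not called. Against ebf3 cells 4 were higher (beside 12.7% and 37.9%), 4 were lower (beside 10.8% and 31.8%) and 5 were not called. Calls in both directions were thus also common among the named genes, from which the 13 were drawn. All 3 wdr12 GFP-positive libraries were above both GFP-negative ones for 9 of the 13 (beside 25.4% of all genes) and below them for 3 (beside 24.5%). They were above the 3 ebf3 libraries for 4 (beside 19.9%) and below them for 4 (beside 17.8%).

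Among the genes called lower, DDX5 (1 of 3) (ENSORLG00000000863), a helicase of splicing and transcription, was at 529, 336 and 481 CPM in the wdr12 GFP-positive sort, 915 and 1090 CPM in GFP-negative and 1150, 1130 and 926 CPM in ebf3 cells. The wdr12 GFP-positive libraries were all below the controls, which overlapped. DDX5 (1 of 3) had log2 fold changes of -1.16 ± 0.304 (adjusted p = 0.013) and -1.25 ± 0.28 (adjusted p = 0.00384). Its relative DDX17 (1 of 2) (ENSORLG00000013685) was at 57.5, 33.9 and 27.5 CPM in the wdr12 GFP-positive sort, 43.1 and 58 CPM in GFP-negative and 96.9, 62.2 and 89.1 CPM in ebf3 cells. For DDX17 (1 of 2) the sorts of the wdr12 line overlapped and the ebf3 libraries were the highest; only the difference from ebf3 cells was called, at a log2 fold change of -1.06 ± 0.324 (adjusted p = 0.0263). NOL4 (1 of 2) (ENSORLG00000014751) carries a second name, NOL4L (1 of 2), in the sheets, so its identity is not settled. Its function is little known. This gene was at 4.98, 10 and 9.14 CPM in the wdr12 GFP-positive sort, 20.2 and 23.2 CPM in GFP-negative and 24.1, 16.9 and 20.8 CPM in ebf3 cells. All wdr12 GFP-positive values of NOL4 (1 of 2) were below all control values, with log2 fold changes of -1.43 ± 0.419 (adjusted p = 0.0246) and -1.35 ± 0.385 (adjusted p = 0.0174). The WD-repeat gene wdr13 (ENSORLG00000014232) was at 34.7, 24.3 and 42.2 CPM in the wdr12 GFP-positive sort, 60.5 and 70.4 CPM in GFP-negative and 85.4, 66.7 and 60.6 CPM in ebf3 cells. It was lower without overlap, at -0.96 ± 0.32 (adjusted p = 0.0469) and -1.07 ± 0.292 (adjusted p = 0.0136), and the first of these calls was lost in 7 of 16 alternatives. The neuronal markers were lower in the same cells, and their part in these differences was not tested.

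Of the genes called higher, ddx39aa (2 of 2) (ENSORLG00000010565), of the DDX39 helicases that splice and export mRNA, was at 1650, 1170 and 903 CPM in the wdr12 GFP-positive sort, 337 and 380 CPM in GFP-negative and 1150, 1030 and 948 CPM in ebf3 cells. The GFP-negative libraries were far below the other groups, which overlapped. Its log2 fold changes were 1.79 ± 0.341 over GFP-negative (adjusted p = 0.00174) and 0.25 over ebf3 cells (adjusted p = 0.623; -0.01 under total count scaling), and it was called lower in GFP-negative than in ebf3 cells, at -1.54 ± 0.337 (adjusted p = 0.0147). DDX39A (1 of 2) had the same order of controls, with 653, 463 and 392 CPM in the wdr12 GFP-positive sort, 310 and 330 CPM in GFP-negative and 702, 667 and 564 CPM in ebf3 cells, and was called in no comparison (adjusted p = 0.174, 0.423 and 0.0828). wdr5, a subunit of histone methyltransferase complexes, was also called in no comparison (adjusted p = 0.165, 0.404 and 0.0775); it was at 616, 287 and 326 CPM in the wdr12 GFP-positive sort, 244 and 237 CPM in GFP-negative and 632, 590 and 427 CPM in ebf3 cells. The authors had listed both DDX39A (1 of 2) and wdr5 as lower in GFP-negative than in ebf3 cells. In their own test the adjusted p was 0.002586 and 0.000647. Here that difference was called in 3 and 4 of 16 alternative settings. Reads of named copies could be shared between near-identical genes, so the values of the 5 genes named as 1 of several copies are uncertain.

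Large changes with wide errors stood among the genes of low counts in this class. ddx11, a helicase of sister-chromatid cohesion, was at 29.6, 13.6 and 10.6 CPM in the wdr12 GFP-positive sort, 4.13 and 1.03 CPM in GFP-negative and 1.38, 4.28 and 6.16 CPM in ebf3 cells, with a smallest count of 6 reads. It was called higher in both comparisons, at log2 fold changes of 2.81 ± 0.802 (adjusted p = 0.0212) and 2.19 ± 0.651 (adjusted p = 0.0223). wdr76, in humans linked to the DNA damage response, was at 28.9, 16.3 and 15.6 CPM in the wdr12 GFP-positive sort, 3.48 and 10.5 CPM in GFP-negative and 1.79, 3.74 and 3.5 CPM in ebf3 cells. wdr76 was called against ebf3 cells, at 2.75 ± 0.543 (adjusted p = 0.00155), and not against GFP-negative cells, at 1.53 ± 0.594 (adjusted p = 0.087). The ciliary gene wdr90 was at 47.7, 35.9 and 31.7 CPM in the wdr12 GFP-positive sort, 14.8 and 15.5 CPM in GFP-negative and 10.6, 17.7 and 12.2 CPM in ebf3 cells. It was called in both comparisons, at log2 fold changes of 1.34 ± 0.39 (adjusted p = 0.0234) and 1.51 ± 0.339 (adjusted p = 0.0039). wdr6, whose yeast counterpart takes part in tRNA methylation, was called against ebf3 cells, at 1.5 ± 0.461 (adjusted p = 0.0265), and not against GFP-negative cells (1.03, adjusted p = 0.199). The splicing helicase ddx41 and WDR77, the partner of the arginine methyltransferase PRMT5, were called against GFP-negative cells at 1.43 and 1.58 (adjusted p = 0.0109 and 0.0417), and had 0.45 and 0.35 against ebf3 cells (adjusted p = 0.349 and 0.645).

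Other genes of the pathway were taken from a list of 115 symbols outside the rule. Of the 33 found among the named genes, 31 were higher than in GFP-negative cells (median log2 fold change 1.47) and 19 higher than in ebf3 cells (median 1.01), and 0 were lower in either, also at an unadjusted p under 0.05. They too come only from genes the authors listed, of which 29.9% and 37.9% were called higher, beside 9.92% and 12.7% of all genes tested. mycn, a transcription factor that drives ribosome production, was at 53.4, 66.7 and 28.8 CPM in the wdr12 GFP-positive sort, 8.92 and 4.98 CPM in GFP-negative and 10.6, 4.28 and 9.65 CPM in ebf3 cells. All 3 wdr12 GFP-positive values of mycn were above all control values, with log2 fold changes of 2.84 ± 0.53 (adjusted p = 0.0015) and 2.6 ± 0.441 (adjusted p = 0.000479). fbl, the rRNA methyltransferase of box C/D particles, was at 200, 147 and 99.1 CPM in the wdr12 GFP-positive sort, 28.3 and 30.9 CPM in GFP-negative and 58.4, 44.7 and 44.1 CPM in ebf3 cells, with log2 fold changes of 2.33 (adjusted p = 0.00041) and 1.6 (adjusted p = 0.00107). The left-out box C/D proteins nop56 and nop58 had log2 fold changes of 1.88 and 2.32 over GFP-negative and 1.56 and 1.68 over ebf3 cells. bop1, which forms a complex with wdr12, was called over GFP-negative cells at 1.18 (adjusted p = 0.0144) and had 0.62 over ebf3 cells (adjusted p = 0.121). Between the controls 1 of the 33 was called lower in GFP-negative cells and 0 higher, beside 1.96% and 3.16% of all genes. At an unadjusted p under 0.05 the edgeR counts were 14 lower and 0 higher, beside 1490 and 1473 of all 15640 genes. The median log2 fold change of the 33 was -0.56. The gene called was xrn2, the exonuclease that trims rRNA ends, at -1.16 in GFP-negative over ebf3 cells (adjusted p = 0.0352). In GFP-negative cells xrn2 was at 54 and 61 CPM, below the 142, 117 and 126 CPM of the ebf3 line and the 159, 120 and 115 CPM of the wdr12 GFP-positive sort.

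Among the wdr12 GFP-positive libraries, replicate 1 held the highest value for 25 of 27 assembly factors, replicate 2 for ddx54 and polr1b and replicate 3 for 0. Replicates 1, 2 and 3 were highest for 34.5%, 29.4% and 36.1% of all genes tested, and for 37.4%, 15.3% and 47.3% of the named genes. The high values of replicate 1 were not limited to the assembly factors: it was also highest for 11 of the 13 genes of other roles, DDX5 (1 of 3) and DDX17 (1 of 2) among them, and for 28 of the 33 pathway genes outside the rule. The 27 genes together took 0.298%, 0.264% and 0.203% of the counts in replicates 1, 2 and 3, against 0.135% and 0.118% in GFP-negative and 0.176%, 0.168% and 0.165% in ebf3 cells. All 3 wdr12 GFP-positive libraries were above the 5 controls. The mean shares were 0.255% ± 0.0479 (SD, n = 3), 0.126% ± 0.0122 (SD, n = 2) and 0.17% ± 0.006 (SD, n = 3). The median coefficient of variation of the factors was 24.4% in wdr12 GFP-positive, 13.9% in GFP-negative and 14.8% in ebf3 cells, beside 39.1%, 22% and 34.5% over all genes.

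By summed share of counts, the cycling-cell markers ranked these 3 libraries as the sum of the factors did. They took 0.627%, 0.474% and 0.303% in wdr12 GFP-positive replicates 1, 2 and 3, and 0.0344% to 0.0608% in the controls. In summed CPM the factors were at 3737, 2597 and 2477 in replicates 1, 2 and 3, with the last 2 close together. Not every factor kept this order: gnl2 and wdr18, for example, were lowest in replicate 2. By share of counts, neuronal markers ran the other way, with 0.0185%, 0.0246% and 0.0483% in wdr12 GFP-positive replicates 1, 2 and 3. They took 0.223% and 0.243% in GFP-negative and 0.144% to 0.169% in ebf3 cells. Radial glia markers, 3 of 6 found, took 0.0795%, 0.118% and 0.212% in wdr12 GFP-positive, 0.138% and 0.138% in GFP-negative and 0.0153% to 0.0291% in ebf3 cells. Microglia markers, 3 of 6 found, took 0.0481% to 0.125% in wdr12 GFP-positive, 0.0769% and 0.0616% in GFP-negative and 0.00521% to 0.0231% in ebf3 cells, so the sorts of the wdr12 line overlapped. The 4 oligodendrocyte markers took 0.572% and 0.304% in GFP-negative and 0.0177% to 0.101% in the other libraries, but they did not move together. Against GFP-negative cells plp1b and mbpa were lower in the wdr12 GFP-positive sort, at log2 fold changes of -2.81 and -2.38 (adjusted p = 0.0222 and 0.0234), mag was not called (adjusted p = 0.706) and cnp was higher, at 3.01 (adjusted p = 7.18e-05). Endothelial markers, 2 of 5 found, took 0.0083% to 0.0177% in wdr12 GFP-positive cells and 0.00502% to 0.0107% in the controls, and the pair went opposite ways. cdh5 was lower in wdr12 GFP-positive cells, at log2 fold changes of -2.6 and -3.42 (adjusted p = 0.00116 and 6.96e-05), and cldn5a higher, at 4.14 and 3.46 (adjusted p = 9.79e-05 and 3.27e-05). The part of these cell types in the differences of the factors was not tested.

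**Figure D5:**
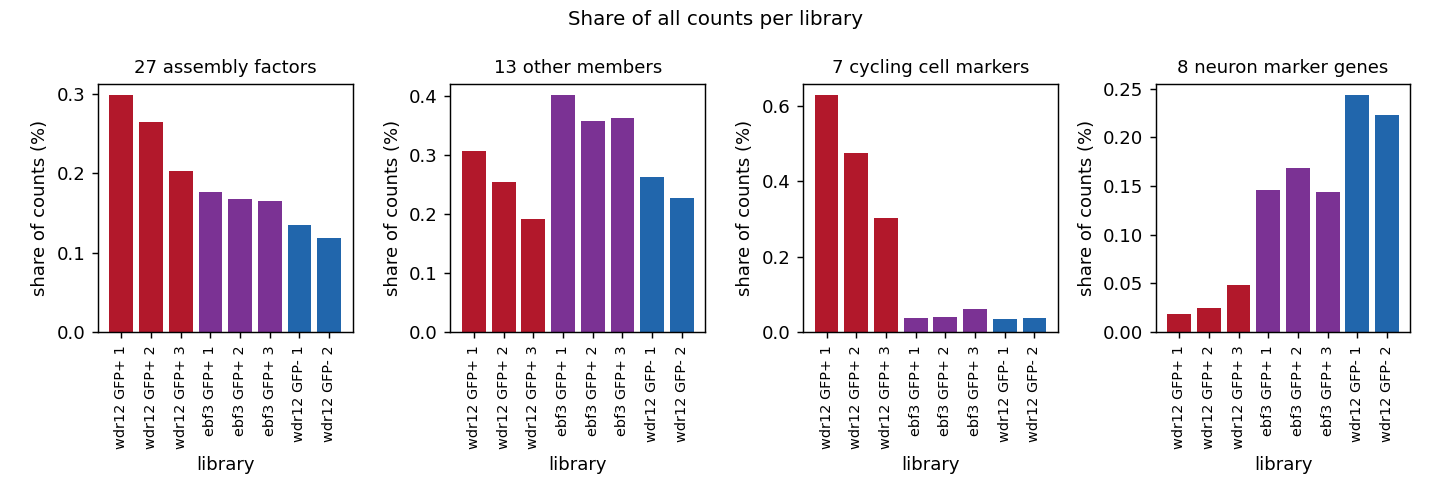
Share of all counts (%) per library taken by the 27 assembly factors, the 13 genes of other roles, 7 cycling-cell markers and 8 neuronal marker genes, with wdr12 GFP-positive libraries in red, ebf3 cells in purple and GFP-negative in blue. The assembly factors and the cycling markers are highest in wdr12 GFP-positive replicate 1 and lowest of that group in replicate 3, and the neuronal markers show the reverse order.

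All 27 factors had every wdr12 GFP-positive library above both GFP-negative ones, beside 25.4% of all genes. The same held against the 3 ebf3 libraries for 21 factors, beside 19.9%, and against all 5 controls for 21, beside 14.1%. These separations are not independent evidence either. The authors had listed 25 of the 27 factors as higher against GFP-negative cells in the same libraries. The share of named genes with such a separation was not computed. The calls changed with the library left out and with the scaling. Against GFP-negative cells, 16 of 27 factors were called under total count scaling. Most of the calls were lost when either GFP-negative library was left out, the 1 library left being assumed to vary like the other groups. The factors' median log2 fold change was then 1.34 without replicate 1 and 1.55 without replicate 2. In some fits without 1 library, fewer of all genes were called higher than in GFP-negative cells as well. Against ebf3 cells, 6 factors were called without ebf3 replicate 2 and 7 without replicate 1 or 3. There were 8 without wdr12 GFP-positive replicate 1 or 2, and 6 under total count scaling. Over all genes, leaving out 1 library in turn gave 1537 to 1994 called higher than in ebf3 cells, beside 1983 with all 8.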

How the data were processed

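Per the labels, total RNA of sorted tectal cells was sequenced. Per the submitters' processing notes, CASAVA 1.8.2, FastQC 0.10.1, TopHat2 and DESeq were used; the program that counted reads, the build and the gene models are not named in the sources used here. The authors' deposited tables hold, per the file headers, each library's whole read counts by gene, the authors' log2 fold change and p-value, and gene names only for genes in their lists. Of 17142 genes, 185 lacked libraries and were not tested. Directions come from the full tables, since the sheets with ebf3 reverse the sign. The 40 genes, the marker and pathway lists and the tests were chosen with earlier results of these data known.

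All 8 libraries were fitted in 3 groups with edgeR 4.0.16 (R 4.3.3): TMM, filterByExpr, quasi-likelihood F test, two-sided, Benjamini-Hochberg over 15640 genes, calls at an adjusted p under 0.05. The SE is the log2 fold change over the square root of F. Genes given in full were both RNA polymerase I subunits, nhp2, the 4 genes of highest mean CPM in each other role, those called lower or called between controls, and wdr12, bop1 and fbl; other genes given values were chosen after their values were seen. Alternatives were RLE and total count scaling, 2 other filters, DESeq2 1.42.0, fits of 2 groups, a replicate block, leaving out each library and, added after seeing the data, leaving out 2 globin genes. The edgeR steps were tested on simulated counts, for wdr12 GFP-positive against GFP-negative cells only. Those counts had equal group levels for all but a set of changed genes, so the test does not bear on the choice of scaling. Software beside these was Python 3.11.15, pandas 2.3.3, numpy 2.4.6 and matplotlib 3.10.9.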

Additional observations from a re-analysis of the deposited data

How the results depend on the processing

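Limits were the 2 GFP-negative libraries, the lack of a statement on separate pools, and the drawing of names from lists of changed genes. RLE scaling, no filter and leaving out 2 globin genes gave the same 25 and 14 assembly factors as higher against GFP-negative and ebf3 cells, and DESeq2 gave 26 and 17. Under total count scaling 18 of the 40 genes and 16 of 27 factors were higher than in GFP-negative cells, and 8 and 6 higher than in ebf3 cells; the median of all genes then moved to -0.346 and -0.235, and the factors' medians relative to it were 1.37 and 0.84, against 1.37 and 0.88 under TMM. Lower in GFP-negative than in ebf3 cells were 8 of the 40 genes with DESeq2 and 9 with only the 2 groups fitted, and 5 factors in each. The counts of all genes called under these settings are not given here, and the cause of these moves was not tested.

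Leaving out in turn 1 of the wdr12 GFP-positive or ebf3 libraries gave 23 to 31 of the 40 genes higher than in GFP-negative cells. For the factors the range was 21 to 26, and 2 to 3 genes were lower. Against ebf3 cells 9 to 18 genes and 6 to 14 factors were higher, and 1 to 5 genes lower. Without ebf3 replicate 1 or 2, 0 of the 3 factor calls between the controls were kept. Leaving out either GFP-negative library lost most of the factor calls against GFP-negative cells. With both GFP-negative libraries kept, the fewest genes higher than in GFP-negative cells came without wdr12 GFP-positive replicate 1. Against ebf3 cells the fewest higher came without ebf3 replicate 2 (9 genes also without replicate 1). The count of 1 gene lower than in ebf3 cells came without ebf3 replicate 1. Without ebf3 replicates 1 and 3 there were 7 factors higher each, and without wdr12 GFP-positive replicates 1 and 2 there were 8 each. Fewer samples entered each of these fits. With each of the 8 libraries left out in turn, the factors' median log2 fold change stayed between 1.13 and 1.55 against GFP-negative cells. It stayed between 0.58 and 0.99 against ebf3 cells, and between -0.76 and -0.49 for GFP-negative over ebf3 cells.

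For same-numbered libraries, the correlations of deviations from the group mean were -0.207 and -0.242 between the sorts of the wdr12 line. They were 0.209, -0.102 and 0.0154 between wdr12 and ebf3 cells, and -0.161 and 0.0213 between the controls. Deviations within a group must cancel, and those of the 2 GFP-negative libraries mirror each other. With so few libraries these correlations cannot tell whether same-numbered libraries were paired. With the replicate block, 25 factors were higher than in GFP-negative and 12 higher than in ebf3 cells, and 3 lower between the controls. Over the 40 genes these counts were 29, 16 and 5. The counts over all genes with the block are not given here.

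Changes of sign were looked for only in the genes given in full. The values of these genes that changed sign were all uncalled and near 0. For GFP-negative over ebf3 cells, leaving out 1 library in turn gave ranges of -0.36 to 0.02 for polr1a, -0.31 to 0.13 for pno1, -0.22 to 0.04 for DDX5 (1 of 3), -0.02 to 0.21 for NOL4 (1 of 2), -0.23 to 0.04 for wdr13 and -0.12 to 0.16 for wdr12. Total count scaling gave 0.0 for pno1, 0.06 for DDX5 (1 of 3) and 0.03 for wdr13, and the replicate block gave -0.17 for wdr12. NOL4 (1 of 2) was at -0.01 without ebf3 replicate 2. For wdr12 GFP-positive over ebf3 cells, the ranges were -0.18 to 0.38 for dcaf13, -0.0 to 0.51 for wdr18 and -0.03 to 0.41 for ddx39aa (2 of 2), and total count scaling gave -0.05 for dcaf13 and -0.01 for ddx39aa (2 of 2).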

Other observations

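The authors' deposited table that sets their medaka genes beside published gene lists of fly and mouse neural cells names some of these genes. Of 231 medaka genes shared with a fly neuroblast list (Berger), 8 were among the 40: polr1a, noc4l, nol6, pno1, wdr3, gnl3, nhp2 and wdr90, in the authors' deposited table. Of 210 genes shared with a mouse list named aAstrocyte (Codega), 3 were among them, noc4l, gnl3 and nhp2, in the authors' deposited table. The 8 other lists in that table, of 2 to 134 shared genes, held 0 of the 40. Every member found in a published list was among the 11 of the 40 that the authors listed as higher against both controls. Whether the authors drew that table only from such genes was not checked, so this is not a separate result. The share of all the authors' listed genes found in each published list was not computed, so these overlaps cannot be judged.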
